A study of Rattus norvegicus with 60 samples.

Results

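The livers of rats given p-toluidine at 20 mg/kg per day were compared with the livers of the rats given only the corn oil vehicle. The comparison rests on 10 of the 60 arrays of the study, which are the 5 labelled as p-toluidine at 20 mg/kg and the 5 labelled as p-toluidine vehicle. All 31042 probe sets that are not array controls were tested. The study exposed male F344/N rats to p-toluidine or to N,N-dimethyl-p-toluidine (DMPT), and measured liver RNA on Affymetrix 3′ expression arrays. Each chemical had its own vehicle group and 5 dose groups of 1, 6, 20, 60 and 120 mg/kg, with 5 arrays in each. The rats were 5 to 6 weeks old at the start, were housed 2 to a cage, and were dosed by gavage on 5 consecutive days. The protocol spells out this dose series for DMPT, and the sample labels give it for p-toluidine. Vehicle and dosed rats shared strain, sex, diet, corn oil and schedule. No label says which animal an array came from, so p-values reflect only the spread among these arrays, which may be technical. Below, a dosed or vehicle liver stands for an array of that group, and not for a known separate animal.

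p-Toluidine is a small aromatic amine, and DMPT carries methyl groups on its nitrogen that p-toluidine lacks. The liver oxidises aromatic amines at the nitrogen through cytochrome P450 and flavin-containing monooxygenases, and acetylates, sulfates, glucuronidates or joins the products to glutathione before export. Electrophiles and oxidants release the transcription factor NRF2 from its inhibitor KEAP1, and NRF2 then drives genes for glutathione handling, quinone and aldehyde reduction and conjugate export. The receptors AhR, CAR and PXR control further sets of xenobiotic-metabolising enzymes.

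The 10 arrays were alike in scale, with medians between 2.731 and 2.792 on the log2 scale and values between 0.05074 and 13.7. Arrays of the same group correlated at 0.9908 to 0.9954 (Pearson, across probe sets, which are not independent). The log2 difference between such arrays had an SD of 0.2118 to 0.3004 over the probe sets. The 3′ minus 5′ difference of the beta-actin control probe sets, a gauge of RNA integrity, averaged 1.61 ± 0.23 at 20 mg/kg and 1.80 ± 0.15 in vehicle livers (SD, n = 5 each), with an exact permutation p of 0.159. That of Gapdh averaged 0.08 ± 0.06 at 20 mg/kg and 0.14 ± 0.03 in vehicle livers, with an exact permutation p of 0.119 and an adjusted p of 0.159 for both gauges. The smallest p this design allows is 0.00794.

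At 20 mg/kg, 244 probe sets differed from vehicle at a limma adjusted p of at most 0.05 (Benjamini-Hochberg), which is 0.786% of those tested, and these are the calls described here. Of them, 150 were higher (0.483%) and 94 were lower (0.303%). Counting each gene by its brightest probe set, 154 of 14217 genes were called (1.08%), with 89 higher (0.626%) and 65 lower (0.457%). Most changes were small. The median absolute log2 change of the called probe sets was 0.48, the smallest was 0.25, 80 changed at least 1.5-fold (0.258%), and 13 changed at least 2-fold, of which 8 were higher and 5 lower. The values of the groups did not overlap for 200 of the 244 (82.0%), against 2.75% of all probe sets. At an unadjusted p under 0.05 there were 3426 probe sets, where 1550 would pass by chance.

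The number of calls depended on single arrays. It was 115 without vehicle replicate 4, 139 without vehicle replicate 2, and 124, 136 and 152 without replicates 2, 1 and 3 of the 20 mg/kg group. A fit on only the 10 arrays compared gave 133 calls. Of these, 113 were among the 244 from the fit in which all 30 p-toluidine arrays share an estimate of the spread. For this reason each gene whose call at 20 mg/kg against vehicle was lost in any of the 10 fits that leave out 1 array is given with the number of such fits. A called gene with no such number kept its call in all 10. Of the 15 largest rises and 15 largest falls, 15 genes were called in every such fit and 15 were lost in at least 1. Of the 44 genes called at 20 mg/kg that the naming rule picked, the fit on the 10 arrays alone lost 18, at adjusted p from 0.0506 to 0.201. These were Acaa2, Aco1, Ahr, Apoa4, Ccnd1, Cyp3a18, Cyp51, Efemp1, Ehhadh, Fads1, Fmo1, Inhbe, Isyna1, Jund, Nags, Nnmt, Pde4b and Slc6a6. The actin gauge as a covariate lost 9 of the 44 (0.0559 to 0.0857), namely Abcb1a, Aco1, Apoa4, Efemp1, Gpx2, Inhbe, Isyna1, Phlda3 and Tm7sf2.

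**Figure D1:**
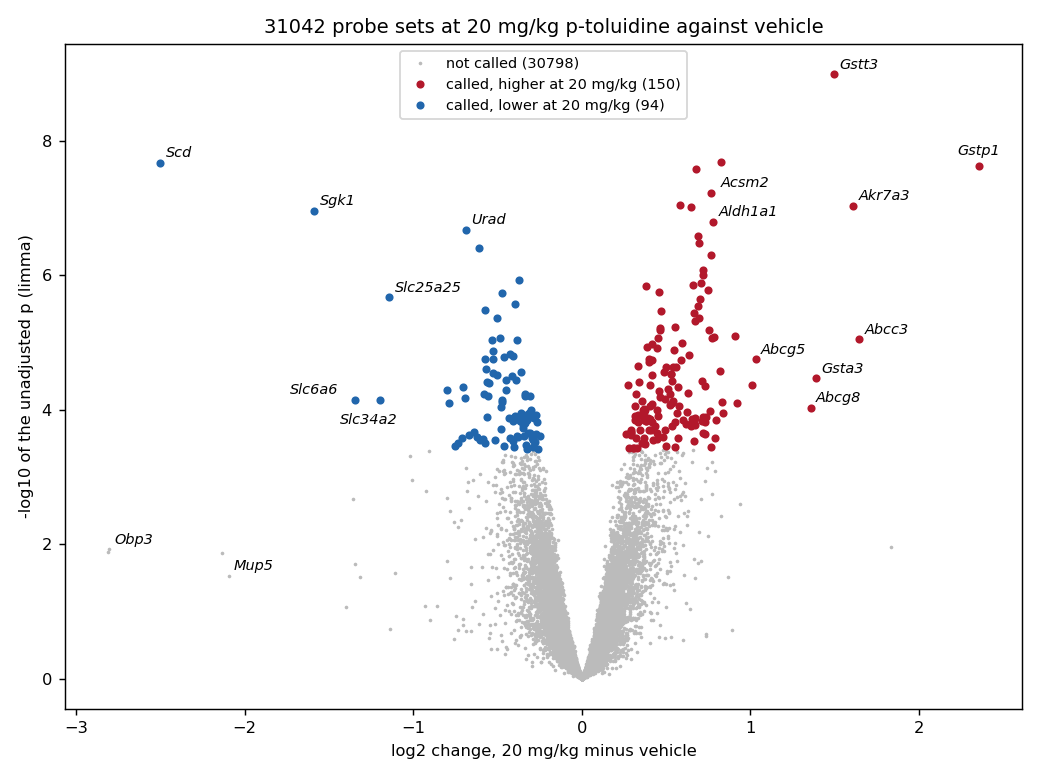
The log2 change at 20 mg/kg minus vehicle (horizontal axis) is plotted against the −log10 of the unadjusted limma p (vertical axis) for 31042 probe sets. Red points are the 150 called higher at 20 mg/kg, blue points are the 94 called lower, and grey points were not called. Gstp1, Abcc3, Akr7a3 and Gstt3 lie farthest to the right among the calls and Scd farthest to the left, while Obp3 and Mup5 have large differences that were not called.

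The largest rises were those of Gstp1, Abcc3, Akr7a3, Gstt3 and Gsta3, each an NRF2 target or a glutathione S-transferase gene by the lists used. The rises that ranked next, of Abcg8, Abcg5, Arrdc3 and Idi1, belong to neither list. Of 27 measured NRF2 targets, 8 rose and none fell (29.6%, against 1.08% of all genes), and their median log2 change was 0.27, against −0.00 over all genes. Of 21 glutathione S-transferase genes 6 rose and none fell, with a median of 0.27, and 19 of the 21 had a change above 0. The lists share members such as Gstp1 and Gsta3.

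Gstp1, the pi-class transferase that joins glutathione to electrophiles and is the classic marker of altered hepatocyte foci in rat liver, showed the largest rise. Its log2 values were 8.16, 9.19, 8.75, 6.52 and 7.15 at 20 mg/kg, against 5.08, 5.91, 5.32, 5.90 and 5.77 in vehicle livers. The groups did not overlap, and the dosed livers spread over a wider range than the vehicle livers. The log2 change was 2.36 ± 0.32 (SE), a 5.12-fold difference with a limma adjusted p of 0.000166, and the call was kept in all 10 fits that left out 1 array.

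The 250 bases before the RefSeq start of Gstp1 are shown because they hold the letters of an antioxidant response element core. They lie at chr1:210769706-210769955 of the GRCr8 build, minus strand, and the capitals mark a match to TGACNNNGC at positions −61 to −53 from the start.
Gstp1: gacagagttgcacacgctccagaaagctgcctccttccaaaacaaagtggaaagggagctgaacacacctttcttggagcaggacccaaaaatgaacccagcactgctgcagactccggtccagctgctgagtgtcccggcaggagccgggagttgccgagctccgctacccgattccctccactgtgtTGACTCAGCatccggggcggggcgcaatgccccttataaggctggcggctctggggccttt
The matched letters TGACTCAGC also contain the AP-1 motif TGACTCA. A match in these letters is a description of the sequence and not a shown binding site. On either strand of the 250 bases before a start, 10.1% of all 33469 promoters in the table held a match. Among promoters of genes called higher the share was 20.5% (16 of 78), among those called lower it was 14.1% (9 of 64), and 130 of the 154 called genes had a promoter in the table.

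Gstt3, a theta-class transferase, had the smallest adjusted p of all probe sets. Its log2 values were 8.91, 9.56, 9.21, 9.06 and 8.93 at 20 mg/kg, against 7.72, 7.46, 7.40, 7.89 and 7.73 in vehicle livers. The lowest dosed liver stood clear of the highest vehicle liver. This was a log2 change of 1.5 ± 0.17 (SE, 2.82-fold, limma adjusted p 3.21e-05), and all 10 leave-one-out fits called it.

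Gsta3, an alpha-class transferase, had log2 values of 7.75, 7.85, 6.98, 7.68 and 7.65 at 20 mg/kg, against 6.30, 5.71, 6.06, 5.76 and 7.12 in vehicle livers. The groups overlapped, since vehicle replicate 5 lay above replicate 3 of the dosed group. The log2 change was 1.39 ± 0.29 (SE, limma adjusted p 0.0134), and the call was lost in 1 fit, without vehicle replicate 4 (1.28, adjusted p 0.0528). Gstm1, a mu-class transferase, rose by 0.65 ± 0.09 (SE, 1.57-fold, limma adjusted p 0.000333) and was called in every such fit. Its values ran between 11.38 and 11.77 at 20 mg/kg and between 10.70 and 11.19 in vehicle livers, with no overlap. Gsta4 rose by 0.42 ± 0.09 (SE, adjusted p 0.0217, lost in 5 fits, 0.0757 without vehicle replicate 2) and the microsomal transferase Mgst2 by 0.40 ± 0.08 (SE, adjusted p 0.0152). Probe sets of the transferase families can bind related members, so values for single transferases may hold signal of their relatives.

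Akr7a3, an aldo-keto reductase known for reducing aflatoxin dialdehyde, ranked after Gstp1 and Abcc3 among the rises. Its log2 values were 9.23, 9.28, 8.75, 9.46 and 9.34 at 20 mg/kg, against 7.32, 7.52, 7.74, 7.70 and 7.73 in vehicle livers. The groups were separated by about 1 log2 unit. It rose by 1.61 ± 0.23 (SE, 3.05-fold, limma adjusted p 0.000333) and was called in every leave-one-out fit.

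Gpx2, a glutathione peroxidase that reduces peroxides, had log2 values of 4.72, 5.14, 4.58, 4.64 and 4.71 at 20 mg/kg, against 3.81, 3.70, 3.92, 4.23 and 4.17 in vehicle livers. The groups did not overlap, and the call was lost in most fits with fewer arrays. The log2 change of 0.79 ± 0.19 (SE, limma adjusted p 0.0384) lost its call in 9 of the 10 leave-one-out fits, most without replicate 2 of the dosed group (0.69, adjusted p 0.119). It also lost the call with arrays centred on their median (adjusted p 0.0531), with robust moderation (0.0595) and with the actin gauge as a covariate (0.0559).

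The 250 bases before the RefSeq start of Gpx2 are shown because they too hold the core letters, close to the start, at positions −13 to −5 on the opposite strand (chr6:101230034-101230283 of GRCr8, minus strand). The capitals mark the match, which reads TGACTTAGC on the other strand.
Gpx2: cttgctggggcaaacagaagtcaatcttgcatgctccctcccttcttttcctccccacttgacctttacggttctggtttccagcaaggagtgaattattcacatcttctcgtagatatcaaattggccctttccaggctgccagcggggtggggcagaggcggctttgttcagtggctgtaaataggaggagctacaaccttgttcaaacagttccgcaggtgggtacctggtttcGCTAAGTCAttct
Of the 15 largest rises 14 had a promoter in the table and 6 of these held a match, and of the 15 largest falls 14 had a promoter and 4 held a match. The matches of Abcg5 and Abcg8 are the same letters in the stretch that separates their starts, counted for both genes.

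Gsr, glutathione reductase, rose by 0.63 ± 0.14 (SE, limma adjusted p 0.0257), and lost its call in 4 fits (0.0781 without replicate 3 of the dosed group). Other NRF2 targets were not called at this dose. The prostaglandin and alkenal reductase Ptgr1 had a log2 change of 0.57 (adjusted p 0.147) and the quinone reductase Nqo1 of 0.45 (0.356). The glutamate-cysteine ligase subunits Gclm and Gclc had changes of 0.37 (0.0869) and −0.31 (0.241), and heme oxygenase Hmox1 of −0.14 (0.758). The thiol redox genes Txnrd1 and Srxn1 had changes of −0.28 (0.066) and −0.39 (0.075). None of these was called, and 18 of the 27 NRF2 targets had a change above 0. Nfe2l2, the gene for NRF2 itself, fell. Its log2 values were 7.61, 7.98, 7.93, 7.76 and 7.61 at 20 mg/kg, against 8.26, 8.27, 8.36, 8.50 and 8.35 in vehicle livers. Every dosed liver was below every vehicle liver. Its log2 change was −0.57 ± 0.10 (SE, 0.672 of vehicle, limma adjusted p 0.00338), called in all leave-one-out fits.

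**Figure D2:**
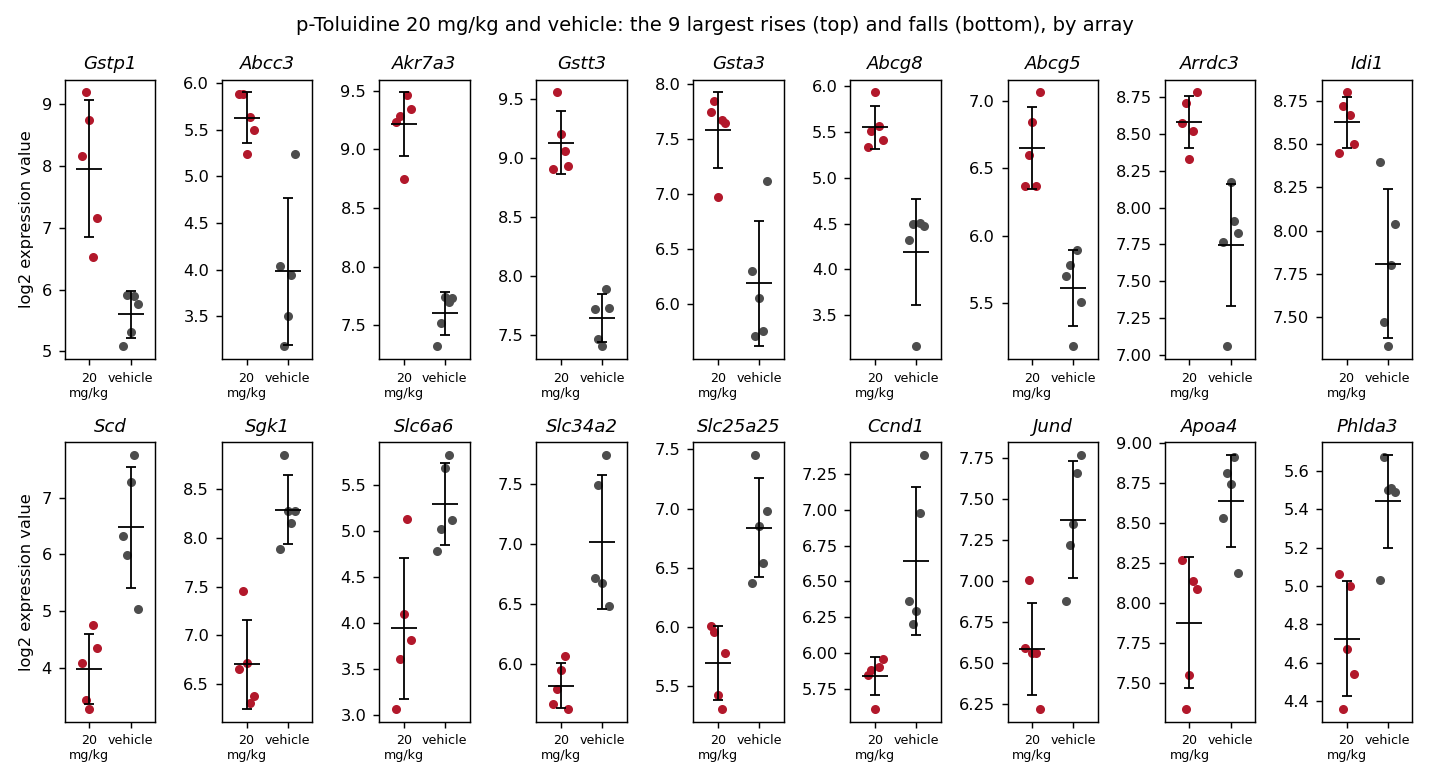
Log2 expression of the 9 largest called rises (top) and 9 largest called falls (bottom) is shown for each array, with red points for 20 mg/kg and grey points for vehicle; horizontal lines are means and bars are SD (n = 5 each). The groups are apart for Gstp1, Akr7a3 and Gstt3, and they overlap for Gsta3 and Slc6a6. Each panel has its own vertical axis, which does not start at 0.

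Of 18 measured CAR and PXR targets, 5 rose and none fell (27.8%, against 1.08% of all genes). The median was 0.06, 11 of the 18 had a change above 0, and the called members were Abcc3, Aldh1a1, Abcb1a, Cyp3a18 and Ugt2b1. Abcc3, the basolateral exporter of glucuronide and other conjugates into blood, had log2 values of 5.88, 5.88, 5.24, 5.64 and 5.50 at 20 mg/kg, against 4.04, 3.18, 3.51, 3.94 and 5.24 in vehicle livers. Vehicle replicate 5 reached the lowest dosed liver, and the other vehicle livers were far below. The log2 change was 1.65 ± 0.31 (SE, 3.13-fold, limma adjusted p 0.0062), with a highest adjusted p of 0.0304 over the leave-one-out fits.

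Aldh1a1, which oxidises retinaldehyde and other aldehydes, had log2 values of 10.58, 10.79, 10.58, 10.57 and 10.65 at 20 mg/kg, against 9.93, 9.46, 9.84, 10.00 and 10.04 in vehicle livers. The dosed livers were tightly grouped above the vehicle livers. The rise in log2 was 0.78 ± 0.12 (SE, limma adjusted p 0.000452), called in every leave-one-out fit. Abcb1a, the drug efflux pump P-glycoprotein, rose by 0.74 ± 0.17 (SE, adjusted p 0.0268). That call was lost in 5 leave-one-out fits (adjusted p 0.0901 without vehicle replicate 3), and another probe set of the gene had a change of 0.52 (adjusted p 0.101). The steroid hydroxylase Cyp3a18 rose by 0.55 ± 0.11 (SE, adjusted p 0.00771, and 0.0796 on the 10 arrays alone). The glucuronosyltransferase Ugt2b1 rose by 0.53 ± 0.11 (SE, adjusted p 0.0122, lost in 1 fit, 0.0516 without vehicle replicate 2). Cyp3a23-3a1, a PXR-inducible P450, had a change of 0.06.

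Of 29 genes on the list of aromatic amine metabolism, 2 rose and 1 fell (10.3%, against 1.08% of all genes), with a median of 0.11. The list is broad, and not every member acts on aromatic amines themselves. Fmo1, a flavin-containing monooxygenase that oxidises amine nitrogens, rose by 0.46 ± 0.10 (SE, limma adjusted p 0.0172), and lost its call in 2 leave-one-out fits (0.0602 without vehicle replicate 3). Ugt2b1 was the other. Nnmt, which methylates nicotinamide and other pyridines, fell by 0.45 on the log2 scale (adjusted p 0.0169), and lost its call in 4 fits (0.066 without replicate 3 of the dosed group). Values of other members were small or variable, with changes of 0.77 for Fmo5 (adjusted p 0.062), −0.17 for the acetyltransferase Nat1, 0.11 for Nat2, 0.05 for Cyp1a2 and −0.12 for the sulfotransferase Sult1a1. Among 8 AhR targets, Cyp1a1 had a change of 0.18 (adjusted p 0.938) and the list median was −0.01. Its only call was the fall of Nfe2l2.

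Both sterol exporter genes rose, and 4 of 20 cholesterol synthesis genes did. Abcg5 and Abcg8 encode the partner proteins of the transporter that secretes cholesterol and plant sterols into bile. Abcg8 had log2 values of 5.33, 5.51, 5.93, 5.56 and 5.41 at 20 mg/kg, against 4.32, 4.49, 3.16, 4.51 and 4.47 in vehicle livers. Abcg5 had log2 values of 6.37, 6.60, 6.84, 6.37 and 7.06 at 20 mg/kg, against 5.70, 5.78, 5.18, 5.89 and 5.51 in vehicle livers. Neither gene's groups overlapped, and vehicle replicate 3 was the lowest for both. The log2 change of Abcg8 was 1.36 ± 0.30 (SE, limma adjusted p 0.0234). Its call was lost in 3 leave-one-out fits (1.10, adjusted p 0.0778 without vehicle replicate 3) and with robust moderation (0.0548). The log2 change of Abcg5 was 1.03 ± 0.20 (SE, adjusted p 0.00907), called in every such fit.

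Both genes start from the same stretch and run in opposite directions, and it is printed because they rose together. In RefSeq GRCr8 205 bases separate their starts at chr6:15717731-15717935, given on the plus strand, with a match to TGACNNNGC in capitals.
Abcg5 and Abcg8: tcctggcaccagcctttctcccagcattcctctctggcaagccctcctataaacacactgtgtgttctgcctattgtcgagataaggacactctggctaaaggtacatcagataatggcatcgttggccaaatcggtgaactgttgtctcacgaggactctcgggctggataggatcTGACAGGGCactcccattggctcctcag

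The cholesterol synthesis list had 4 of 20 members higher and none lower (20.0%, against 1.08% of all genes), a median of 0.33, and 19 members with a change above 0. At 1 mg/kg, where no member was called, its median was 0.25. Idi1, isopentenyl-diphosphate isomerase, had log2 values of 8.45, 8.72, 8.80, 8.67 and 8.50 at 20 mg/kg, against 8.40, 7.47, 7.33, 7.80 and 8.04 in vehicle livers. The dosed livers lay close together, with vehicle replicate 1 just under them. On the log2 scale the rise was 0.82 ± 0.17 (SE, limma adjusted p 0.0119), with 0.91 (adjusted p 0.00615) for another probe set of the gene and an adjusted p of 0.0586 in a fit on all 60 arrays. Acat2, which makes acetoacetyl-CoA at the start of the pathway, rose by 0.72 ± 0.17 (SE, adjusted p 0.0352), and lost its call in 7 fits (0.121 without vehicle replicate 3) and on the 10 arrays alone (0.151). The sterol demethylase Cyp51 rose by 0.63 ± 0.13 (SE, adjusted p 0.0179). Its call was lost in 3 leave-one-out fits (0.0661 without vehicle replicate 2), on the 10 arrays alone (0.0899) and in the 60-array fit (0.0554), and another probe set had a change of 0.38 (adjusted p 0.247). The sterol reductase Tm7sf2 rose by 0.57 ± 0.13 (SE, adjusted p 0.0261), with its call lost in 4 leave-one-out fits (0.0804 without vehicle replicate 4), in the 60-array fit (0.106) and with the actin covariate (0.0641). The feedback regulator Insig1 was the member below 0, at −0.43, and was not called.

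In fatty acid synthesis, 2 of 21 members rose and 2 fell (against 1.08% of all genes called), with a median of −0.13. Scd, the desaturase that makes oleate from stearate, had the largest fall of the comparison. Its log2 values were 4.09, 3.43, 3.27, 4.75 and 4.34 at 20 mg/kg, against 6.33, 5.99, 7.28, 7.75 and 5.04 in vehicle livers. The groups did not overlap, although the vehicle livers themselves spread widely. The log2 change was −2.50 ± 0.33 (SE, 0.177 of vehicle, limma adjusted p 0.000166), and every leave-one-out fit called it. Over the other alternative fits the highest limma adjusted p of Scd was 0.0232, which is still a call.

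The desaturases of polyunsaturated fatty acids moved the other way. Fads2 had log2 values of 10.56, 10.20, 10.27, 10.20 and 9.99 at 20 mg/kg, against 9.60, 9.41, 9.22, 9.54 and 9.88 in vehicle livers, a change of 0.72 ± 0.12 (SE, limma adjusted p 0.0017). Fads1 rose by 0.45 ± 0.08 (SE, adjusted p 0.00615). For both genes the dosed livers were all above the vehicle livers. Pklr, the liver pyruvate kinase, fell by 0.45 on the log2 scale (adjusted p 0.014), and lost its call in 2 fits (0.0581 without replicate 2 of the dosed group). Fatty acid synthase Fasn had a change of −0.36 (adjusted p 0.31) and the lipogenic regulator Srebf1 of −0.32, and neither was called. Of 27 PPARA targets 2 rose (7.41%, against 1.08% of all genes), the peroxisomal bifunctional enzyme Ehhadh by 0.67 (adjusted p 0.0268, and 0.0992 without vehicle replicate 2, lost in 6 fits) and the thiolase Acaa2 by 0.34 (0.0142, lost in 1 fit, 0.0509 without vehicle replicate 3). The list median was 0.16.

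Further large rises came from unrelated genes. Arrdc3, an arrestin-domain protein that directs receptor trafficking, rose by 0.84 ± 0.19 (SE, limma adjusted p 0.026). Its call was lost in 4 leave-one-out fits (0.0976 without vehicle replicate 2), and a further probe set had a change of 0.92 (0.0214). Epcam, an adhesion molecule of bile duct cells and hepatic progenitors, had log2 values of 4.93, 4.95, 5.16, 4.94 and 4.85 at 20 mg/kg, against 4.18, 4.30, 3.60, 4.53 and 4.38 in vehicle livers. The groups were apart, with a change of 0.77 ± 0.12 (SE, adjusted p 0.000982) called in every leave-one-out fit. The bile duct keratin Krt19 had a change of −0.41 (adjusted p 0.411). Epcam was the only call among 9 bile duct and progenitor markers (11.1%, against 1.08% of all genes). Isyna1, which makes inositol phosphate from glucose phosphate, rose by 0.73 ± 0.18 (SE, adjusted p 0.0358), and lost its call in 7 fits (0.14 without replicate 3 of the dosed group). Acsm2, a medium-chain acyl-CoA synthetase, rose by 0.77 ± 0.11 (SE, adjusted p 0.000309). Ahr rose by 0.57 ± 0.14 (SE, adjusted p 0.0384) on its brightest probe set, lost its call in 8 fits (0.123 without replicate 5 of the dosed group), and had a change of 0.01 on another probe set. That other Ahr probe set had means of 1.37 at 20 mg/kg and 1.36 in vehicle livers, below the array medians.

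Among the falls, Sgk1 came after Scd. It encodes a kinase induced by serum and glucocorticoids. Sgk1 was the only call among 22 gluconeogenic and glucocorticoid-responsive genes (4.55%, against 1.08% of all genes). Its log2 values were 6.65, 7.46, 6.72, 6.30 and 6.38 at 20 mg/kg, against 7.89, 8.85, 8.28, 8.15 and 8.28 in vehicle livers. All dosed livers were below all vehicle livers. The log2 change was −1.59 ± 0.23 (SE, 0.333 of vehicle, limma adjusted p 0.00034), called in every leave-one-out fit. Tat, tyrosine aminotransferase, averaged 6.96 ± 0.23 at 20 mg/kg and 7.86 ± 0.59 in vehicle livers (SD, n = 5 each), and its change of −0.90 was not called (limma adjusted p 0.0514).

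The transporters Slc25a25, Slc6a6 and Slc34a2 were also among the largest falls. Slc25a25, the mitochondrial carrier that exchanges ATP-magnesium for phosphate, had log2 values of 6.01, 5.96, 5.43, 5.31 and 5.78 at 20 mg/kg, against 6.37, 7.45, 6.85, 6.54 and 6.98 in vehicle livers. The groups did not overlap, and the change of −1.14 ± 0.20 (SE, 0.453 of vehicle, limma adjusted p 0.00254) was called in every leave-one-out fit. The taurine transporter Slc6a6 had a change of −1.35 ± 0.29 (SE, adjusted p 0.0204), with overlapping groups, its call lost in 4 fits (0.0771 without vehicle replicate 4), and −1.01 (adjusted p 0.0844) on another probe set. The sodium-phosphate cotransporter Slc34a2 had values of 5.62 to 6.06 at 20 mg/kg and 6.48 to 7.74 in vehicle livers. Its change of −1.20 ± 0.26 (SE, adjusted p 0.0206) was lost in 4 fits (0.0855 without vehicle replicate 4).

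Cyclin D1, Ccnd1, which drives entry into the cell cycle, had log2 values of 5.85, 5.88, 5.61, 5.90 and 5.96 at 20 mg/kg, against 6.36, 6.20, 6.29, 6.98 and 7.38 in vehicle livers. The dosed livers were tightly grouped below. The change of −0.80 ± 0.17 (SE, limma adjusted p 0.0167) lost its call in 2 leave-one-out fits (0.069 without vehicle replicate 4) and on the 10 arrays alone (0.0806), and other probe sets gave −0.56 (0.0869) and −0.64 (0.0344). Ccnd1 was the only call among 14 regulators of G1 (7.14%, against 1.08% of all genes). Jund, a subunit of the AP-1 factor, had a change of −0.79 ± 0.17 (SE, adjusted p 0.0214), lost in 3 fits (0.078 without vehicle replicate 4), while its other probe sets gave 0.04 (0.938) and −0.16 (0.657). Those other Jund probe sets had group means between 1.58 and 1.94, below the array medians, so they say little about the gene. Phlda3, a p53 target that restrains AKT, had a change of −0.71 ± 0.17 (SE, adjusted p 0.0384), lost in 7 fits (0.121 without replicate 2 of the dosed group). It was the only call among 16 p53 and DNA damage genes (6.25%). The p53 targets Cdkn1a and Mdm2 had changes of −0.14 and −0.10.

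Urad, an enzyme of urate breakdown, had log2 values of 8.23, 7.62, 7.69, 8.20 and 7.96 at 20 mg/kg, against 8.50, 8.64, 8.50, 8.66 and 8.83 in vehicle livers. The groups were apart, and the change of −0.69 ± 0.10 (SE, limma adjusted p 0.000546) was called in every leave-one-out fit. Faap20, a partner of the Fanconi anemia core complex, fell by 0.58 on the log2 scale (adjusted p 0.00907) and was also called in every such fit. The rest of the 15 largest falls were less firm. Apoa4, an apolipoprotein, had a change of −0.75 (adjusted p 0.0458, lost in 7 fits, 0.145 without replicate 2 of the dosed group). Inhbe, the hepatic activin subunit, had a change of −0.67 (0.0367, lost in 7 fits, 0.115 without replicate 3 of the dosed group). Pde4b, a cAMP phosphodiesterase, had a change of −0.60 (0.0399, lost in 8 fits, 0.146 without vehicle replicate 4), and −0.05 on another probe set. That other Pde4b probe set had means of 1.39 at 20 mg/kg and 1.44 in vehicle livers, below the array medians. Efemp1, an extracellular matrix glycoprotein, had a change of −0.57 (0.0431, lost in 8 fits, 0.132 without replicate 2 of the dosed group), at means of 1.06 at 20 mg/kg and 1.63 in vehicle livers that lie below the array medians.

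Male-biased secretory genes had the widest differences that were not called. The odorant-binding protein gene Obp3 had log2 values of 1.97, 2.14, 5.81, 3.06 and 3.04 at 20 mg/kg, against 4.89, 7.15, 8.47, 7.53 and 2.01 in vehicle livers, a change of −2.80 (limma adjusted p 0.248). Mup5, a major urinary protein, averaged 4.70 ± 1.70 at 20 mg/kg and 6.80 ± 2.12 in vehicle livers (SD, n = 5 each), a change of −2.09 (limma adjusted p 0.366). Replicate 3 of the dosed group was high and vehicle replicate 5 was low for both genes, whose probe sets can bind related family members. Of 13 male-biased genes only Cyp3a18 was called (7.69%), and of 12 female-biased genes only Fmo1 (8.33%), against 1.08% of all genes. Both rose, while only 2 of the 13 and 4 of the 12 had a change above 0. The list medians were −0.09 and −0.27. A1bg, a female-biased plasma protein, had a change of −1.02 (adjusted p 0.0558), at means of 1.45 at 20 mg/kg and 2.47 in vehicle livers that lie below the array medians.

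**Figure D3:**
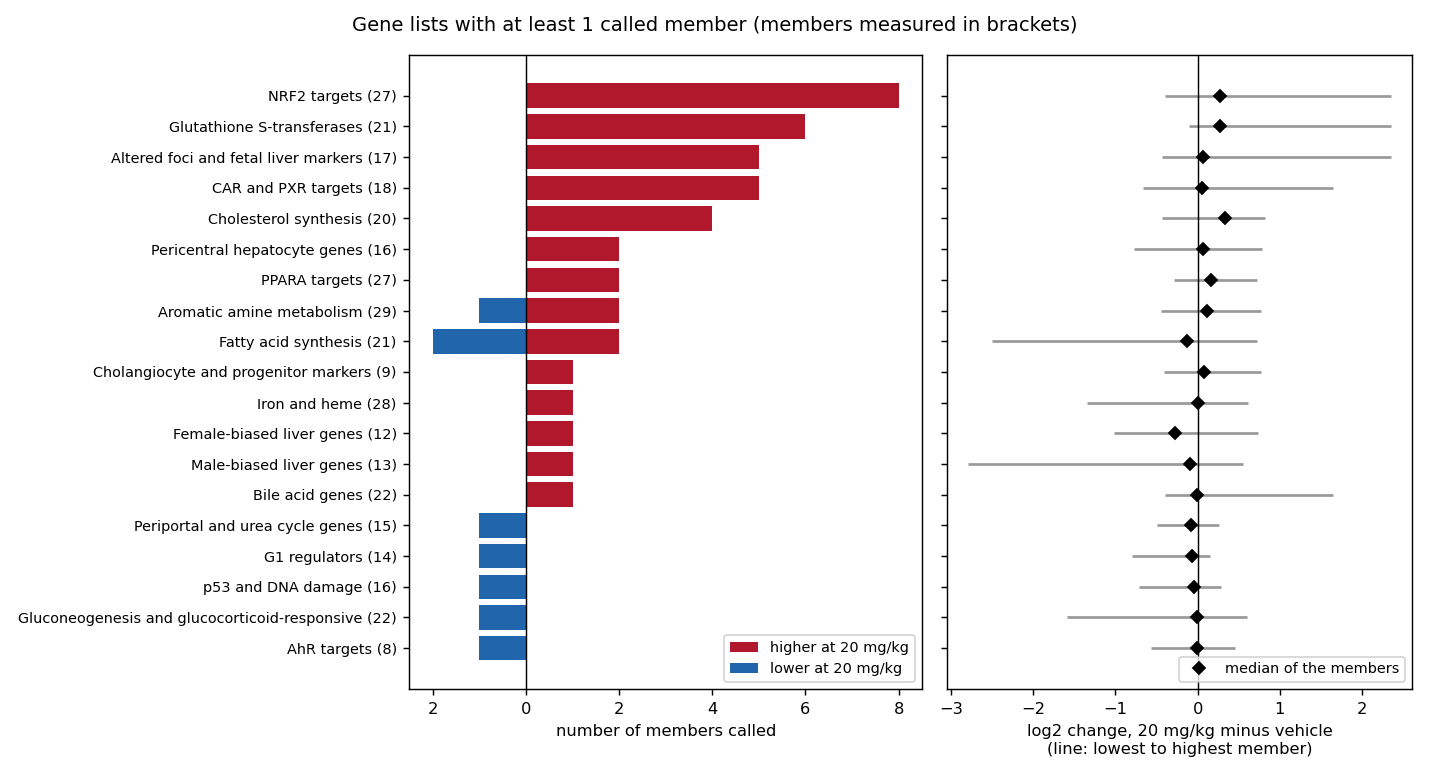
For each gene list with at least 1 called member, the left panel gives the number of members called higher (red, to the right) or lower (blue, to the left) at 20 mg/kg. The right panel gives the median (diamond) and range (line) of the log2 change, 20 mg/kg minus vehicle, over the measured members, whose number stands in brackets. NRF2 targets have 8 members called higher and none lower, and lists in the lower rows of the plot have 1 call each.

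Over the 37 lists, 34 of 647 distinct genes were called, which is 5.26% against 1.08% of all genes, with 26 higher and 8 lower. The lists were chosen with results of these data known, so this share is a description. The list of altered foci and fetal liver markers had 5 of 17 members higher (29.4%, against 1.08% of all genes), with a median of 0.07. Of these, Gstp1, Akr7a3, Gpx2 and Abcc3 are also NRF2 targets, and Epcam is also a bile duct marker. The list is therefore no separate observation. Of 28 iron and heme genes only Aco1, the iron-sensing aconitase, was called. It rose by 0.29 (limma adjusted p 0.0344), with its call lost in 7 leave-one-out fits (0.103 without replicate 2 of the dosed group). The hepcidin gene Hamp had a change of −1.35 (adjusted p 0.31) and the transferrin receptor Tfrc of 0.61 (0.141). In 15 periportal genes only Nags, which makes the activator of the urea cycle, was called, at −0.36 (adjusted p 0.012, and 0.0654 on the 10 arrays alone). Cyp7a1, the rate-limiting enzyme of bile acid synthesis, had a change of 0.41 (adjusted p 0.775).

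No member was called by limma in 18 lists, which cover circadian genes, the unfolded protein and integrated stress response, cell division, acute phase, interferon, erythroid, heat shock and immediate early genes, the proteasome, the respiratory chain and 8 cell type lists. Of their 347 distinct genes, 45 (13.0%) had an unadjusted p under 0.05, and the same share, 13.0% (1850), was seen over all genes. The lists differed in this, with 9 of 21 stellate markers and 5 of 12 hepatocyte markers at such a p, and none of the cell division, immediate early or neutrophil genes. The mean level of the hepatocyte markers ranged from 11.55 to 11.65 over the livers at 20 mg/kg and from 11.64 to 11.85 over vehicle livers. The Kupffer cell markers ranged from 6.38 to 6.67 at 20 mg/kg and from 6.42 to 6.57 in vehicle livers, and the endothelial markers from 5.24 to 5.34 at 20 mg/kg and from 5.21 to 5.37 in vehicle livers. Those of stellate cells ranged from 4.64 to 4.88 at 20 mg/kg and from 4.82 to 4.98 in vehicle livers, with 5 of 21 members above 0 and a median change of −0.20. The bile duct markers ranged from 2.55 to 2.76 at 20 mg/kg and from 2.50 to 2.67 in vehicle livers. Each of these ranges overlapped. The hepatocyte means stood far above the array medians in every liver, which fits the labelled tissue. In bulk liver, fewer cells of a type and less RNA per cell cannot be told apart. The part of the marker differences in the gene results was not tested.

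The neighbouring doses place 20 mg/kg within the series. All p-toluidine doses share the vehicle arrays, so their values are given side by side. At 1 mg/kg no probe set was called (0.0%), with 1992 at an unadjusted p under 0.05. At 6 mg/kg limma again called none (0.0%), with 2557 at an unadjusted p under 0.05 and a smallest adjusted p of 0.069 for Gstt3. There were 1400 calls (4.51%) at 60 mg/kg and 3337 (10.7%) at 120 mg/kg. Of the 27 NRF2 targets, the doses of 20, 60 and 120 mg/kg had 8, 13 and 21 called higher, against 3.01% of all genes higher at 60 mg/kg and 7.84% at 120 mg/kg. At 60 mg/kg 1 NRF2 target was called lower, and at 20 and 120 mg/kg none was.

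Gstp1 means were 5.60 ± 0.38 in vehicle livers and 5.60 ± 0.27, 5.71 ± 0.50, 7.95 ± 1.11, 10.93 ± 0.42 and 12.00 ± 0.19 at 1, 6, 20, 60 and 120 mg/kg (SD, n = 5 each). It was the only probe set that differed between 20 and 6 mg/kg (0.00322% of those tested, with 1637 at an unadjusted p under 0.05). The log2 difference was 2.24 ± 0.32 (SE, limma adjusted p 0.00205), called in every leave-one-out fit, but with an adjusted p of 0.31 on the arrays of these groups alone. Gstt3 means were 7.64 ± 0.20 in vehicle livers and 7.93 ± 0.49, 8.65 ± 0.22, 9.14 ± 0.26, 9.97 ± 0.30 and 10.06 ± 0.23 at the same doses. Gstp1 means stayed within the vehicle spread up to 6 mg/kg, and Gstt3 means were higher at each dose than at the one below.

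Between 60 and 20 mg/kg 33 probe sets differed (0.106%), 18 higher (0.058%) and 15 lower (0.0483%) at 60 mg/kg. Gstp1 was higher by 2.98 ± 0.32 (SE, limma adjusted p 4.51e-06), Akr7a3 by 1.36 (0.00854), Gpx2 by 1.08 (0.00919), Nqo1 by 1.07 (0.01) and Ptgr1 by 1.06 (0.00891). Without replicate 1 of the 60 mg/kg group 10 calls were left, and the adjusted p of Gpx2 was 0.0594 and that of Nqo1 0.0582. On the arrays of these groups alone, Akr7a3 (0.198), Gpx2 (0.0636), Nqo1 (0.19) and Ptgr1 (0.133) were not called. The largest named falls were in the thyroid hormone-binding protein Crym (−0.71), the chemokine Cxcl12 (−0.67), the growth factor-binding protein Igfbp3 (−0.64), the complement protease C1r (−0.60) and Lrmda (−0.59). The calls for Crym, Cxcl12 and Lrmda were lost in 5, 7 and 3 leave-one-out fits. The highest adjusted p of Crym was 0.0956, without replicate 5 of the 20 mg/kg group. That of Cxcl12 was 0.109 and that of Lrmda 0.0762, without replicates 5 and 1 of the 60 mg/kg group. Crym was also not called with all 60 arrays in the fit (0.0512). Crym, Cxcl12, Lrmda and C1r were not called on the arrays of these groups alone (0.0574, 0.175, 0.117 and 0.0679). None of these 5 genes with the largest named falls was called at 20 mg/kg against vehicle.

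Some genes called at 20 mg/kg were nearer to vehicle at higher doses. Abcg8 means were 4.19 ± 0.58 in vehicle livers and 5.14 ± 0.65, 4.63 ± 0.30, 5.55 ± 0.23, 4.65 ± 0.72 and 4.24 ± 0.56 at 1, 6, 20, 60 and 120 mg/kg (SD, n = 5 each), and it was not called at 60 mg/kg (limma adjusted p 0.517) or 120 mg/kg (0.953). Abcg5 means were 5.61 ± 0.28 in vehicle livers and 6.14 ± 0.37, 5.81 ± 0.40, 6.65 ± 0.30, 6.03 ± 0.25 and 5.87 ± 0.49, and Jund means were 7.38 ± 0.36 in vehicle livers and 7.14 ± 0.32, 6.89 ± 0.27, 6.59 ± 0.28, 7.24 ± 0.24 and 7.31 ± 0.33 at those doses. Their differences between 60 and 20 mg/kg were not called either, at −0.90 (limma adjusted p 0.37) for Abcg8, −0.61 (0.351) for Abcg5 and 0.65 (0.171) for Jund. Scd means were 6.48 ± 1.07 in vehicle livers and 5.13 ± 0.27, 5.33 ± 0.51, 3.98 ± 0.62, 3.96 ± 0.36 and 4.03 ± 0.36, and its change against vehicle was −2.51 at 60 mg/kg and −2.45 at 120 mg/kg. The 3 highest doses gave Scd nearly the same mean. Cholesterol synthesis genes called higher numbered 4, 9 and 4 of 20 at 20, 60 and 120 mg/kg, where 0.626%, 3.01% and 7.84% of all genes were called higher.

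**Figure D4:**
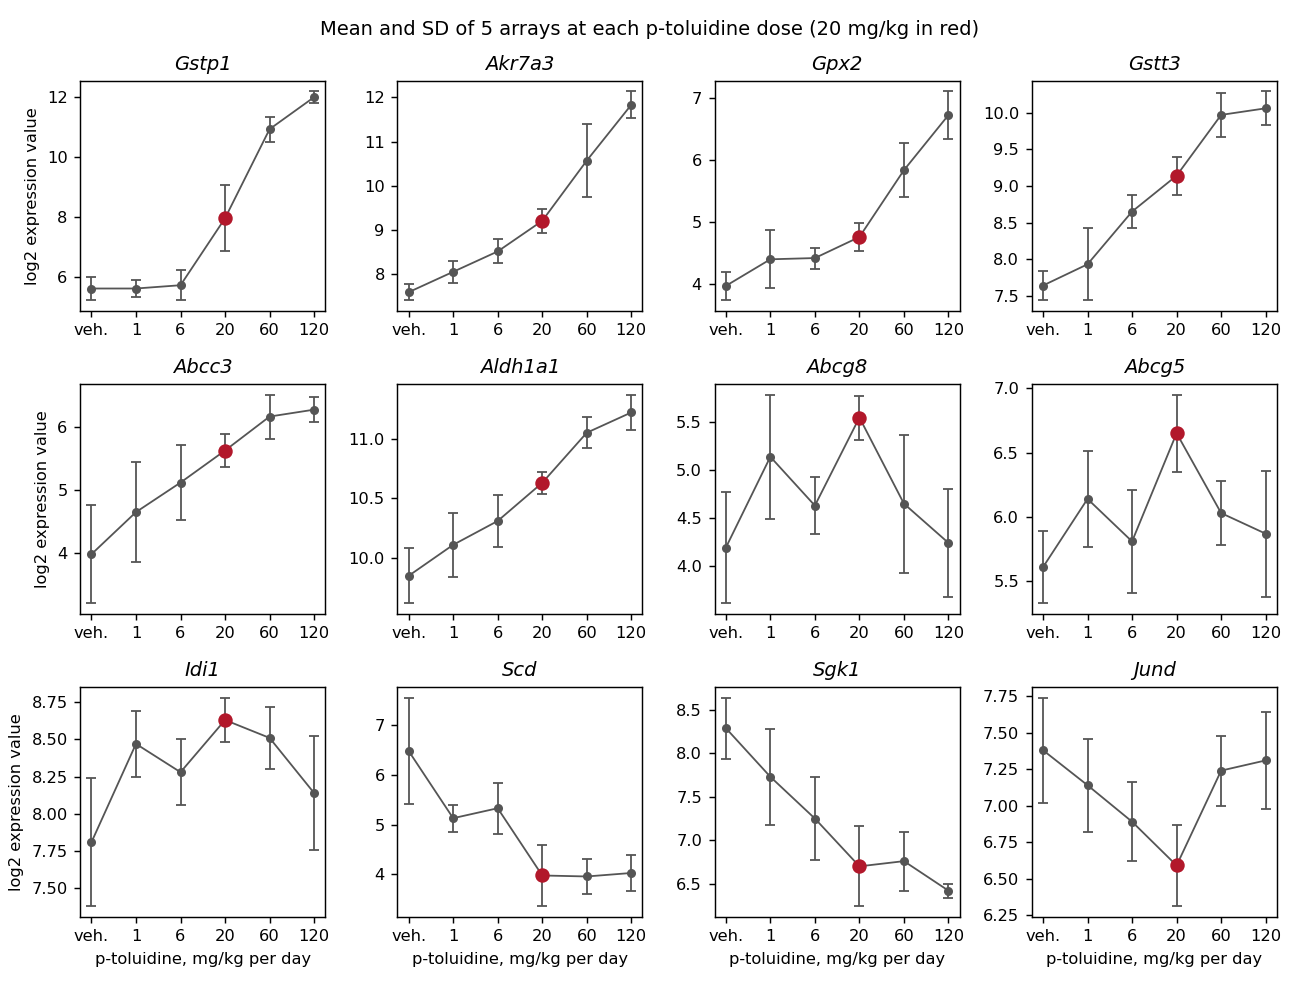
Mean log2 expression (vertical axis, not starting at 0) of 12 genes is plotted for vehicle and for p-toluidine at 1, 6, 20, 60 and 120 mg/kg per day, evenly spaced on the horizontal axis; bars are SD (n = 5 each) and 20 mg/kg is red. Gstp1, Akr7a3 and Gpx2 have their highest means at 120 mg/kg, Abcg8, Abcg5 and Idi1 have theirs at 20 mg/kg, and Jund has its lowest mean there.

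DMPT at the same dose was compared with p-toluidine as responses, each against its own vehicle, because the arrays of the chemicals differ in scale, with medians of 3.538 to 3.616 for DMPT and 2.731 to 2.811 for p-toluidine. This was the only pair of compounds compared. DMPT at 20 mg/kg gave 810 calls (2.61%), 484 higher (1.56%) and 326 lower (1.05%), and shared no array with p-toluidine. The calls had 93 probe sets in common, all in the same direction, which is 38.1% of the p-toluidine calls and 11.5% of the DMPT calls. Of the 244 p-toluidine calls 227 (93.0%) had the same sign with DMPT, against 57.0% of all probe sets.

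No probe set differed between the responses at an adjusted p of at most 0.05 (0.0%), with a smallest adjusted p of 0.0656 in limma and 2280 probe sets at an unadjusted p under 0.05. A fit on the arrays of these groups alone called 39, array weights called 6, the brighter 15521 probe sets gave 2, and 18 were called without replicate 5 of the DMPT vehicle group. The intervals show what sizes the data allow, although the genes given next were named for their p-toluidine change, which is part of the difference. Gstp1 rose by 4.16 with DMPT and 2.36 with p-toluidine, a difference of DMPT minus p-toluidine of 1.80 (95% interval 0.82 to 2.79, limma adjusted p 0.231). Akr7a3 had a change of 0.78 with DMPT (adjusted p 0.0544) and 1.61 with p-toluidine, a difference of −0.83 (−1.51 to −0.16, adjusted p 0.59). Abcc3, Gsta3 and Gstt3 had differences of −0.01 (−0.89 to 0.87), 0.01 (−1.02 to 1.04) and 0.26 (−0.31 to 0.82), so these genes could still differ by up to about 1 log2 unit.

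Scd had a change of −2.88 with DMPT and −2.50 with p-toluidine, a difference of −0.38 (−1.76 to 1.01). Abcg8 had a change of −0.20 with DMPT and 1.36 with p-toluidine (difference −1.56, interval −2.39 to −0.73, limma adjusted p 0.208), and Abcg5 had −0.16 and 1.03 (difference −1.20, interval −1.83 to −0.57, adjusted p 0.196). Jund had 0.29 with DMPT and −0.79 with p-toluidine (difference 1.08, interval 0.61 to 1.55, adjusted p 0.0934), and Nfe2l2 had a difference of 0.46 (0.16 to 0.77, adjusted p 0.422). The intervals for Abcg8, Abcg5, Jund and Nfe2l2 leave out 0, while that for Scd holds 0, and none of these differences passed the adjustment over all probe sets. These genes too were named for their p-toluidine change, and that choice can itself move an interval away from 0. The smallest adjusted p among named genes belonged to the kinesin Kifc3 (0.67, interval 0.41 to 0.93), the ribosomal protein paralogue Rps27l (1.16, interval 0.68 to 1.63) and the helicase Dhx34 (−0.44, interval −0.62 to −0.26), each at 0.0656. Scgb3a1 and Defb4, genes for secreted epithelial proteins, had differences of −0.51 and −0.46 (adjusted p 0.168 and 0.171).

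**Figure D5:**
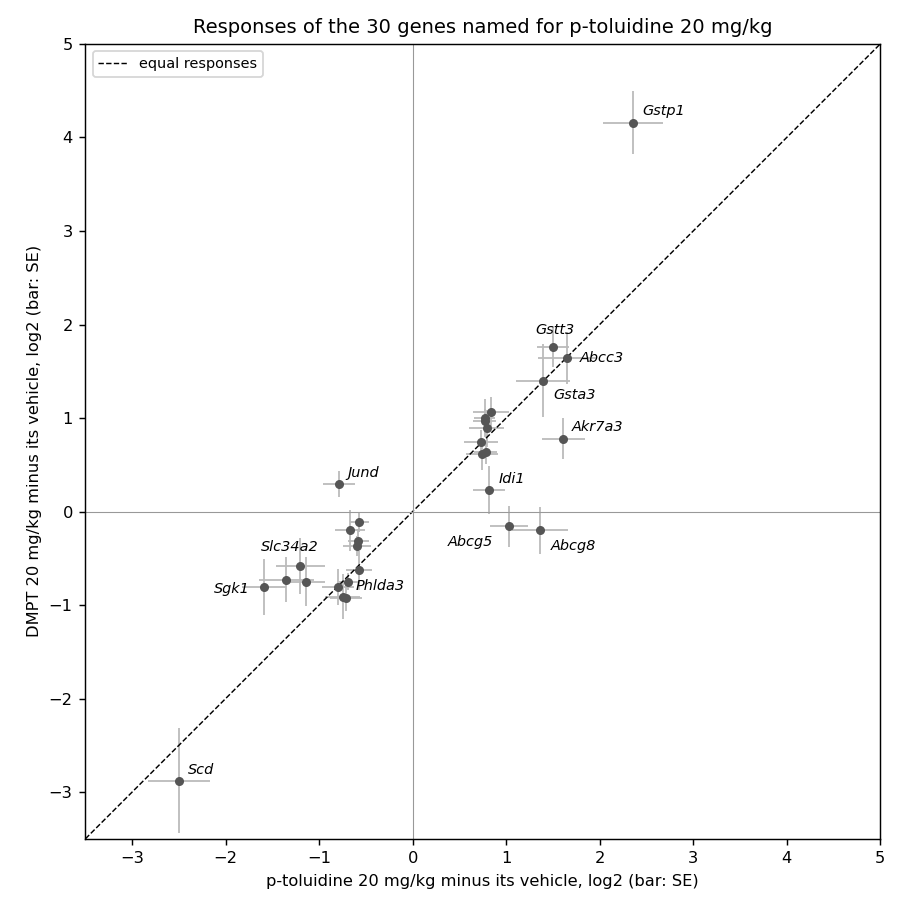
The log2 change with DMPT at 20 mg/kg (vertical axis) is plotted against that with p-toluidine at 20 mg/kg (horizontal axis), each minus its own vehicle, for the 15 genes called with the largest rise and the 15 with the largest fall under p-toluidine; bars are SE and the dashed line marks equal responses. Gstp1 lies above the line, at 4.16 with DMPT and 2.36 with p-toluidine, and Abcg8 and Abcg5 lie below it with DMPT changes of −0.20 and −0.16.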

How the data were processed

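The 60 arrays were grouped by their labels, and all 60 columns were mapped by title. The authors made the deposited values with RMA, per the submitters' processing notes. For RMA, the version and settings were not stated in any source used. The deposited values are taken as log2 intensities from their range. Array medians ran from 3.538 to 3.616 for DMPT and from 2.731 to 2.811 for p-toluidine, so the chemicals appear to have been normalized apart, and levels were compared only within a chemical. The array design limits the precision through the number of arrays, 5 a group.

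Of 31099 probe sets, 57 controls were left out and 31042 were tested. The platform annotation gave 1 symbol for 20826 (20758 found in the RefSeq GRCr8 table), several for 436 and none for 9780. The brightest probe set over the 60 arrays stood for each of 14217 genes.

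limma 3.58.1 in R 4.3.3 fitted the 6 group means of the 30 p-toluidine arrays (12 group means of 60 arrays for the difference between the chemicals' responses), with eBayes and Benjamini-Hochberg adjustment over all tested probe sets. A call is an adjusted p of at most 0.05. The fits were tested on simulated data. The design text names the ORIOGEN software, which was not used here. The RNA gauges had 2-sided exact permutation tests. Named genes are the 15 largest called rises and falls, the 5 largest called in each direction between adjoining doses (the 3 of smallest p where none was called), and the 3 members of smallest p in each list. Others were chosen after their values were seen. The comparison, its members and the gene lists were chosen with earlier results of these data known. Alternatives were fits on only the groups compared or on all 60 arrays, quantile normalization, median centring, the brighter probe sets, an intensity trend, robust moderation, array weights, a replicate block, the actin gauge as a covariate, a 1.5-fold minimum, and leaving out each array. Same-numbered arrays of the 20 mg/kg and vehicle groups had correlations of −0.265 to −0.0101 in their deviations from the group means, and replicate numbers were not treated as pairs. No array of the 20 mg/kg group correlated best with the vehicle array of its own number. What the numbers stand for, such as a shared cage, day or batch, was not tested. Promoters are from RefSeq (GRCr8), and the arrays carry no coordinates.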

Additional observations from a re-analysis of the deposited data

Results flagged for a closer look

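In groups of 5 arrays, 16 of 262 groups had an array set apart from the other 4 by more than 0.71 of the group's range (Dixon's test), and chance gives about 5% of groups. In the 20 mg/kg group these were Gpx2 in replicate 2 (5.14, others 4.58 to 4.72), Gsta3 in replicate 3 (6.98, others 7.65 to 7.85), Obp3 in replicate 3 (5.81, others 1.97 to 3.06), the phosphatase Dusp1 in replicate 2 (7.25, others 5.64 to 5.93) and the chaperone Hyou1 in replicate 4 (5.27, others 4.76 to 4.85). So were Igfbp3 in replicate 3 (6.93, others 7.23 to 7.31), the small heat shock protein Cryab in replicate 5 (3.19, others 3.51 to 3.58), the endothelial marker Pecam1 in replicate 1 (4.16, others 4.32 to 4.39) and the acinar marker Clps in replicate 4 (1.57, others 1.49 to 1.51).

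In the vehicle group these were Abcg8 in replicate 3 (3.16, others 4.32 to 4.51), Mup5 in replicate 5 (3.05, others 7.32 to 8.24), Phlda3 in replicate 1 (5.03, others 5.49 to 5.67) and Rarres2, the gene for chemerin, in replicate 4 (10.71, others 10.44 to 10.51). So were the iron regulator Hfe in replicate 5 (5.57, others 5.78 to 5.86), the interferon factor Stat2 in replicate 5 (6.25, others 6.47 to 6.55) and the lymphocyte marker Nkg7 in replicate 3 (2.0, others 2.44 to 2.55).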

How the results depend on the processing

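The 244 calls at 20 mg/kg against vehicle became 133 on only the arrays compared (113 of them among the 244) and 392 with all 60 arrays (217 among the 244). There were 394 among the brighter 15521 probe sets (224 among the 244) and 408 with array weights (all 244 among them). The actin gauge as a covariate gave 289, with 183 among the 244. The count was 80 at 1.5-fold or more, and 115 to 247 when 1 array was left out. The 1 call between 20 and 6 mg/kg became 0 on only the arrays compared (1787 at an unadjusted p under 0.05) and 1 to 2 when 1 array was left out. The 33 calls between 60 and 20 mg/kg became 5 on only the arrays compared (3 of them among the 33) and 56 with all 60 arrays (29 among the 33). The count was 17 at 1.5-fold or more, and 10 to 53 when 1 array was left out. The 0 differences between the responses to DMPT and p-toluidine became 39 on only the arrays compared, 2 among the brighter probe sets, 6 with array weights, 1 with the replicate block, and 0 to 18 when 1 array was left out. The 34 list genes called became 20 at 1.5-fold or more and were as few as 22 when 1 array was left out. With the replicate number as a block, 239 probe sets were called, 219 of them among the 244. It lost the calls of Aco1, Ahr, Isyna1 and Phlda3 (adjusted p 0.0514 to 0.0593) among the 44 named genes called. Whether the replicate numbers stand for a shared cage, day or batch was not tested. The fit on all 60 arrays lost 7 of the 44 (0.0554 to 0.131), robust moderation 5 (0.052 to 0.0653) and median centring 4 (0.0514 to 0.0771). Of 1163 gene values under other settings with all arrays kept, 1084 kept their side of the threshold, 47 lost and 32 gained a call, and none changed direction. Leaving out replicate 1 of the 20 mg/kg group turned the direction of the uncalled neutrophil markers Csf3r (0.02, adjusted p 0.974) and Mmp8 (0.00, adjusted p 0.998), whose changes with 1 array left out ran from −0.12 and −0.10 up to these values. The causes were not tested. Of the 244 called probe sets, 225 were brighter than the median probe set.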

Other observations

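Further called genes were chosen after their values were seen. They belong to no list and stand for no group. Acsm5, an acyl-CoA synthetase related to Acsm2, rose by 0.56 ± 0.11 and Glyatl2, a glycine N-acyltransferase-like gene, by 0.69 ± 0.11 on the log2 scale (SE, limma adjusted p 0.0107 and 0.000746). The branched-chain acyl-CoA dehydrogenase Acadsb rose by 0.71 (0.0273), the short-chain dehydrogenase Bdh2 by 0.70 (0.00403), the peroxisomal enzyme Hsd17b4 by 0.28 (0.0351) and the peroxisomal transporter Abcd3 by 0.29 (0.0367). Of these 4 genes only Bdh2 was called in every fit that left out 1 array, and the calls for Acadsb, Hsd17b4 and Abcd3 were lost in 6, 7 and 8 of the 10 fits (adjusted p 0.0838 and 0.103 without vehicle replicate 2, and 0.111 without vehicle replicate 3). Bdh2 had means of 2.58 at 20 mg/kg and 1.89 in vehicle livers, which lie below the array medians. The aldehyde oxidase Aox1 rose by 0.59 (0.00658), the folate enzyme Aldh1l1 by 0.58 (0.000333), the carbonyl reductase Dhrs4 by 0.38 (0.00204) and the alcohol dehydrogenase Adh1c by 0.37 (0.0273), which lost its call in 6 such fits (0.0911 without vehicle replicate 4).

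Urah, which acts just before Urad on the products of urate, fell by 0.38 on the log2 scale (adjusted p 0.00192), and the purine salvage enzyme Hprt1 rose by 0.46 (0.00522). Ddah1, which breaks down methylated arginine, rose by 0.68 ± 0.09 (SE, adjusted p 0.000166). The adhesion molecule Icam1 fell by 0.27 (0.0356, lost in 7 such fits, 0.106 without replicate 2 of the dosed group) and the oxidoreductase of disulfide formation Ero1a by 0.39 (0.00298). A gene here with no count of lost fits was called in all 10. In the limma fit on the 10 arrays alone, Ero1a (adjusted p 0.0568), Adh1c (0.0568), Acadsb (0.0526), Hsd17b4 (0.11), Abcd3 (0.122) and Icam1 (0.132) were not called.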
